A study of Mus musculus with 18 samples.

Results

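The transcripts of 9 lymphocyte genes were followed on 18 arrays of mouse fat cell fractions. Of these, 6 are T cell genes (Cd3d, Cd3e, Cd3g, Lck, Cd8a and Cd4) and 3 are B cell genes (Ms4a1, Cd79a and Cd79b). They were chosen by name: every array probe that is no control spot and whose gene name in the scanner files is one of these symbols was taken, which gave 14 probes of 41174. They are 9 of the 19217 genes that could be tested. A probe was kept if some group of 3 had it well above background throughout, and the brightest kept probe stood for its gene. The other 5 probes are described at the end. A level is the log2 processed signal of a probe minus the log2 75th percentile of signals on the same array, so 0 is the level of a fairly bright probe and each unit is a doubling. Levels of different probes cannot be set against each other.

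The mice were young adult C57BL/6 males, with no transgene or treatment named in the labels. Interscapular brown, inguinal and epididymal fat were digested with collagenase. Floating adipocytes were separated by centrifugation from the pelleted stromal-vascular fraction (SVF), which holds the precursor, vascular and immune cells, and whose erythrocytes were lysed. This gave 6 groups (brown SVF, brown adipocyte, inguinal SVF, inguinal adipocyte, epididymal SVF and epididymal adipocyte) of 3 biological replicates, with 1 array each. The labels do not say how many animals gave each replicate or whether lymph nodes were removed from the fat.

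T cells recognise antigen through a receptor whose signalling part is the CD3 complex, and B cells through surface immunoglobulin bound to the CD79 pair. Lck, a tyrosine kinase carried by the co-receptors CD4 and CD8, phosphorylates the CD3 chains. Lymphocytes circulate through blood, tissues and lymph nodes, and a lymph node lies within the inguinal fat pad of the mouse, so digests of this depot may hold lymphocytes of the node as well as those of the fat itself. In RNA of a whole fraction, fewer cells of a type and less RNA per cell cannot be told apart.

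Adipoq, which encodes the adipocyte hormone adiponectin, lay between 7.41 and 8.79 on the 9 adipocyte arrays and between 0.66 and 4.43 on 8 of the 9 SVF arrays. Brown SVF 2, at 7.16, stood apart: the median of the adipocyte list was 6.03 there against 2.50 and 3.37 on brown SVF 1 and 3. Pdgfra, a receptor of fibroblasts and adipocyte precursors, lay between 1.33 and 3.60 on SVF arrays and between -2.31 and 1.57 on adipocyte arrays. Another pair of arrays stood apart. The array labelled inguinal SVF 1 gave Xist, the RNA of the inactive X chromosome, at 4.99 against at most -4.57 on all others, and lacked the Y-linked Ddx3y (-6.49 against at least 0.18), which goes against its male label. It also had the highest Wt1, a mesothelial transcription factor, at 4.46, while inguinal SVF 2 and 3 were at -7.87 and -7.42. Epididymal adipocyte 3 had Ucp1, the uncoupling protein of brown fat, at 4.50 against -3.35 and -1.05 on the other arrays of its group. The 75th percentile signal ran from 338 to 1257, and 49.1% to 71.8% of probes were well above background on 17 arrays but 87.7% on epididymal adipocyte 1. Inguinal and epididymal adipocyte arrays were scanned on other slides and days, and extracted with another software version, than all other arrays, so in these depots fraction and scan cannot be told apart. Brown SVF and brown adipocytes shared slides.

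The probe sequences are shown for genes whose values differ in pattern below. Those of Cd3d, Cd3g and Cd8a were read from probes that rise and fall together over the arrays, and those of Cd79a and Cd4 from probes that keep less to this pattern. The Cd8a sequence is that of a dimmer probe, well above background on 9 arrays, and not of the probe that stands for the gene below.
Cd3d: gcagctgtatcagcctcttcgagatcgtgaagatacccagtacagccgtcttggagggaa
Cd3g: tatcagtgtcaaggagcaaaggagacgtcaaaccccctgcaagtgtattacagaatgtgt
Cd8a: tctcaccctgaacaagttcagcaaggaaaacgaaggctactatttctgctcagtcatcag
Cd79a: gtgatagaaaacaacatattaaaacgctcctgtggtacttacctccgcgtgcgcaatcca
Cd4: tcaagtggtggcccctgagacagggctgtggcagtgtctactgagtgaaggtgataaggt
All are 60 bases long and are written 5′ to 3′ as in the files, in lower case. The files place them on mouse build mm8. The Cd3d probe covers chr9:44737083-44737314 on the plus strand, a stretch of 232 bases that is longer than the probe, so that it joins pieces separated in the genome. The Cd3g probe likewise covers 585 bases, chr9:44724628-44725212 on the minus strand, and the Cd79a probe 258 bases, chr7:24608094-24608351 on the plus strand. The Cd8a probe lies unbroken at chr6:71303400-71303459 on the plus strand and the Cd4 probe at chr6:124833307-124833366 on the minus strand. In RefSeq's annotation of GRCm38.p6, Cd3g, Cd3d and Cd3e are neighbours on chromosome 9. They take up 40092 bases with no other annotated gene between them, and 1337 bases separate the ends of Cd3g and Cd3d.

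The promoters of the members were read from RefSeq (GRCm38.p6), which had a 300-base window for 6 of the 9 genes and none for Cd4, Ms4a1 and Cd79b. Lck has 2 windows, for its separate start sites. The windows run from 250 bases before the start, and the letters in capitals match AGGAAGT on either strand, a core that factors of the ETS family are known to bind.
Cd3d, chr9:44981536-44981835, plus strand: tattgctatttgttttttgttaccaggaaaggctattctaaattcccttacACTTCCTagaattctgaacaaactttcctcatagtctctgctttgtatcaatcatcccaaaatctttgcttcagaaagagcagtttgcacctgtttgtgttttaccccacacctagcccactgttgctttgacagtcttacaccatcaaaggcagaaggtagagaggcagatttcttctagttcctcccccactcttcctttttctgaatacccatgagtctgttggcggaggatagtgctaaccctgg
Cd3e, chr9:45009562-45009861, minus strand: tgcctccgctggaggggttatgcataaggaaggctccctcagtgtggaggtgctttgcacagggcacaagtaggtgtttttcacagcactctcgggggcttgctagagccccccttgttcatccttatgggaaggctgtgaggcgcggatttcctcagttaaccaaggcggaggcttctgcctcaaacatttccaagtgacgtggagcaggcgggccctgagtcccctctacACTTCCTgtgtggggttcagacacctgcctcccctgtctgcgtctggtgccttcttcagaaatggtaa
Lck, chr4:129573592-129573891, minus strand: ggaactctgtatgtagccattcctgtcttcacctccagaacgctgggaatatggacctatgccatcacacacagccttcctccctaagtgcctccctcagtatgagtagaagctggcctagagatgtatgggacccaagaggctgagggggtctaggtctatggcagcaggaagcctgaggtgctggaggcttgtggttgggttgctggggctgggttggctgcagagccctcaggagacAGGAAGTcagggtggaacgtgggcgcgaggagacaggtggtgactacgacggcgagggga
Cd79a, chr7:24897247-24897546, plus strand: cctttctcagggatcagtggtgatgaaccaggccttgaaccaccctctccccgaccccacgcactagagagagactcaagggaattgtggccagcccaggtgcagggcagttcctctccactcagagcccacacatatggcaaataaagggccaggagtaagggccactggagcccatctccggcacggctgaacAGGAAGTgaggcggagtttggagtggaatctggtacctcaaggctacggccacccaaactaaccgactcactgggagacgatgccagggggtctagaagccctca
This motif was picked after the sequences had been seen. It was present in 5 of the 7 member windows (Cd3d, Cd3e, Cd79a and both of Lck) and absent from those of Cd3g and Cd8a, while 9.35% of all 32851 promoter windows held it. The E-box CAGNTG was in 7 of 7 member windows and in 51.4% of all, and CCCNNGGG, searched for the B cell factor EBF1, was in 0 of 7 and in 13.7% of all. A match is a run of letters and no evidence of binding, and the absence of one says only that these letters are not in this window. Among genes with AGGAAGT, the Pearson r of levels with Cd3d was 0.37 for Cd3e, 0.65 for Cd79a and 0.99 for Lck. For Cd3g and Cd8a, without it, r was 0.93 and 0.95. The part of any motif in the levels was not tested.

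The CD3 chains come first. Cd3d, the delta chain, was at -0.82, -1.38 and -0.07 in brown SVF and at -3.27, -4.01 and -3.03 in brown adipocytes. In inguinal SVF it was at -0.58, 1.24 and 4.88, and in inguinal adipocytes at 2.80, 2.59 and -2.85. In epididymal SVF it was at -1.02, -1.46 and 0.03, and in epididymal adipocytes at -2.67, -2.77 and -2.0. The brown and epididymal groups were tight and the inguinal groups were not: inguinal SVF 3 was the highest of all 18 arrays, inguinal adipocyte 1 and 2 came next, and inguinal adipocyte 3 was below every SVF array.

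Cd3g, the gamma chain, followed the same order. It was at -1.78, -2.03 and -0.75 in brown SVF, and was not well above background on any brown adipocyte array (measured at -5.50, -4.38 and -4.20). Inguinal SVF gave -2.64, 0.06 and 3.34, and inguinal adipocytes 1.54, 1.84 and -3.68. Epididymal SVF gave -1.54, -2.31 and -1.14, and epididymal adipocytes -1.03, -3.11 and -1.51, which overlap. Over the 18 arrays Cd3g and Cd3d had a Pearson r of 0.93. This is a description, since the arrays share groups, slides and scaling.

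Cd3e, the epsilon chain, did not keep to this order on its brighter probe. That probe was well above background on all 18 arrays but spanned only 3.74 units, from -3.80 on inguinal SVF 1 to -0.06 on inguinal SVF 3, against 8.89 for Cd3d. Its next highest values were -0.61 on epididymal adipocyte 3 and -0.92 on epididymal adipocyte 1, arrays on which Cd3d was at -2.0 and -2.67. Inguinal adipocytes were at -1.80, -1.83 and -1.92, with no fall on replicate 3. Cd3e had r = 0.37 with Cd3d and 0.87 with Cd4.

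Lck, the kinase, was at -0.82, -1.19 and 0.14 in brown SVF and at -4.01, -3.48 and -3.38 in brown adipocytes, the lowest of these not well above background. It was at -0.08, 1.33 and 4.78 in inguinal SVF and at 2.70, 2.43 and -2.35 in inguinal adipocytes. Epididymal SVF gave -0.47, -0.88 and 0.01 and epididymal adipocytes -2.77, -2.49 and -2.36. In brown and epididymal fat the fractions did not overlap, and SVF was the higher. Lck and Cd3d had r = 0.99 over the 18 arrays.

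Cd8a encodes the alpha chain of the co-receptor of cytotoxic T cells. Over the 9 or 10 usable spots of its chosen probe on each array, the SD was between 0.05 and 0.58, with a median of 0.13. Brown SVF was at -2.75, -3.18 and -2.39, and no brown adipocyte array was well above background (-4.71, -5.09 and -4.44). Inguinal SVF was at -4.43 (not well above background), -0.68 and 2.81, and inguinal adipocytes at 0.95, 0.83 and -4.43. Epididymal SVF was at -3.58, -4.08 and -3.52 and epididymal adipocytes at -3.33, -4.77 and -3.70. Cd8a was the only member whose brown SVF arrays all lay above all epididymal SVF arrays, by 0.95 ± 1.45 (SE) with adjusted p = 0.971 in limma. Among all genes 9.94% lay so.

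Cd4 encodes the co-receptor of helper T cells. Its chosen probe, on 8 to 10 usable spots, had a median SD over spots of 0.25. It was well above background on 13 arrays and on no brown adipocyte array (measured at -5.47, -5.66 and -5.30). Brown SVF was at -5.43, -4.97 and -5.79, inguinal SVF at -4.95, -4.68 and -3.26, and epididymal SVF at -4.60, -5.42 and -5.11. Inguinal adipocytes were at -3.93, -4.25 and -3.44 and epididymal adipocytes at -2.99, -4.02 and -2.81. The highest arrays were therefore epididymal adipocyte 3 and 1, then inguinal SVF 3. Cd4 had r = 0.23 with Cd3d and 0.34 with Cd8a.

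Among the B cell genes, Ms4a1 encodes CD20, a surface protein of mature B cells. It was at 0.09, -0.53 and 0.07 in brown SVF and at -1.69, -2.42 and -3.62 in brown adipocytes. Inguinal SVF was at -0.56, 2.99 and 4.83 and inguinal adipocytes at 3.26, 2.45 and -3.93. Epididymal SVF was at -0.20, -0.23 and -0.37, and epididymal adipocytes at -2.62, -3.45 and -1.39. The lowest and the highest of all 18 values were both inguinal, and the SD of the 3 inguinal adipocyte values was 3.94 against 0.09 in epididymal SVF.

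Cd79b, the beta chain of the receptor pair, behaved like Ms4a1 (r = 0.97). Brown SVF was at 1.14, 0.29 and 1.64, and brown adipocytes at -0.39, -1.60 and -1.20. Inguinal SVF was at 0.26, 3.33 and 6.31, and inguinal adipocytes at 4.14, 3.94 and -1.37. Epididymal SVF was at 0.62, 0.51 and 1.28 and epididymal adipocytes at -0.57, -1.64 and -0.02. Cd79b and Cd3d, genes of different lymphocytes, had r = 0.98.

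Cd79a, the alpha chain, was well above background on 14 arrays. Brown SVF was at -4.54, -4.96 and -4.38 and brown adipocytes at -4.07, -4.64 and -3.86. Inguinal SVF was at -5.35, -2.88 and 0.36 and inguinal adipocytes at -3.42, -3.04 and -4.51. Epididymal SVF was at -4.79, -5.92 and -4.16 and epididymal adipocytes at -3.15, -4.78 and -3.53. Inguinal SVF 3 and 2 led the order, while inguinal adipocyte 1 came before inguinal SVF 2 for Ms4a1 and Cd79b, and inguinal and epididymal adipocyte arrays overlapped.

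**Figure D1:**
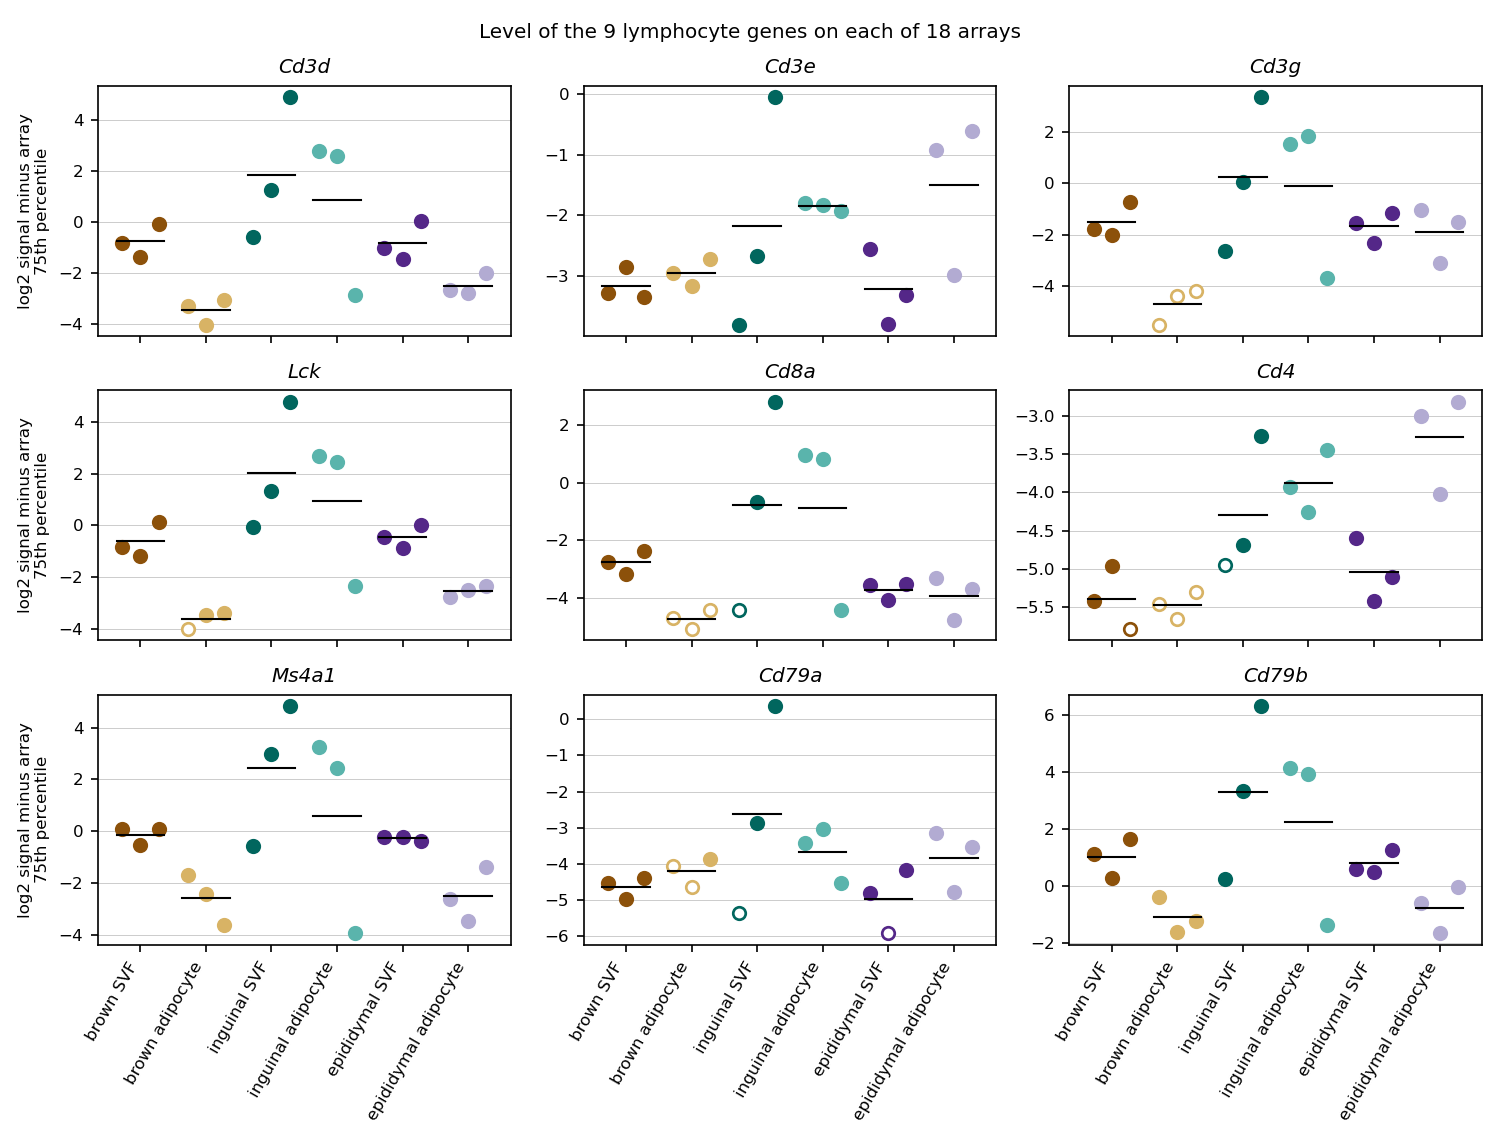
Level of each lymphocyte gene (y axis, log2 signal minus the 75th percentile of the array) by group (x axis), with 1 point per array, replicates 1 to 3 from left to right, filled where the probe was well above background, and a bar at the mean of the group. Values from inguinal fat spread from -2.85 to 4.88 for Cd3d and from -1.37 to 6.31 for Cd79b, wider than in the other depots, while Cd3e and Cd4 are high on epididymal adipocyte 1 and 3.

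By the means of 3 arrays, inguinal SVF ranked above all other groups for 7 members and inguinal adipocytes next. For Cd3e and Cd4 the highest mean was that of epididymal adipocytes, -1.50 ± 1.29 and -3.27 ± 0.65 (SD, n = 3). The inguinal means had SDs so wide that neighbours in the order did not differ beyond their spread: Lck, for example, was 2.01 ± 2.50 in inguinal SVF, 0.93 ± 2.84 in inguinal adipocytes, -0.45 ± 0.45 in epididymal SVF and -0.62 ± 0.69 in brown SVF. It was -2.54 ± 0.21 in epididymal adipocytes and -3.62 ± 0.34 in brown adipocytes, where all 3 arrays lay below those of every other group.

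The replicates of inguinal fat thus differed more from each other than most groups did. The SD over the 3 inguinal SVF arrays had a median of 2.78 over the 9 members and of 0.56 over all 19217 genes, and 8 of 9 members lay above the 95th percentile of that distribution, Cd3e just past it, and Cd4 did not. In inguinal adipocytes the member median was 3.07 against 0.46, with 6 of 9 members at percentiles of 99.5 or more and Cd3e, Cd4 and Cd79a at percentiles 1.71, 43.3 and 77.8. In the other 4 groups the member medians were 0.40 to 0.83 against 0.31 to 0.35 over all genes.

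Differences between single inguinal arrays were seen for both T and B cell genes. From inguinal SVF 1 to inguinal SVF 3 the members rose by between 1.69 (Cd4) and 7.24 (Cd8a), with a median of 5.45, where 0.06 was the median of all genes. Cd4, Cd8a and Cd79a were not well above background on inguinal SVF 1, the array with Xist. Their differences from it thus start from values near background. The 6 members well above background there rose by between 3.74 (Cd3e) and 6.05 (Cd79b). From inguinal SVF 2 to 3 the differences were 1.43 to 3.63, with a median of 3.24. From inguinal SVF 1 to 2 the median was 1.62 over the T cell members and 3.07 over the B cell members. Inguinal adipocyte 1 exceeded adipocyte 3 by 5.65 for Cd3d, 5.22 for Cd3g, 5.05 for Lck, 5.38 for Cd8a, 7.19 for Ms4a1 and 5.50 for Cd79b, but by 0.12 for Cd3e, by -0.48 for Cd4 and by 1.09 for Cd79a. The differences between inguinal adipocyte 1 and 2 were small for all 9 members (-0.39 to 0.81), within the 5th to 95th percentile of all genes (-1.0 to 1.05). These are differences between single arrays of the same group, so they carry no test. Each inguinal adipocyte array had a slide and scan day of its own. Inguinal SVF 3 was on another slide and day than inguinal SVF 1 and 2, which shared theirs. Except between inguinal SVF 1 and 2, sample and scan therefore cannot be told apart in these differences.

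**Figure D2:**
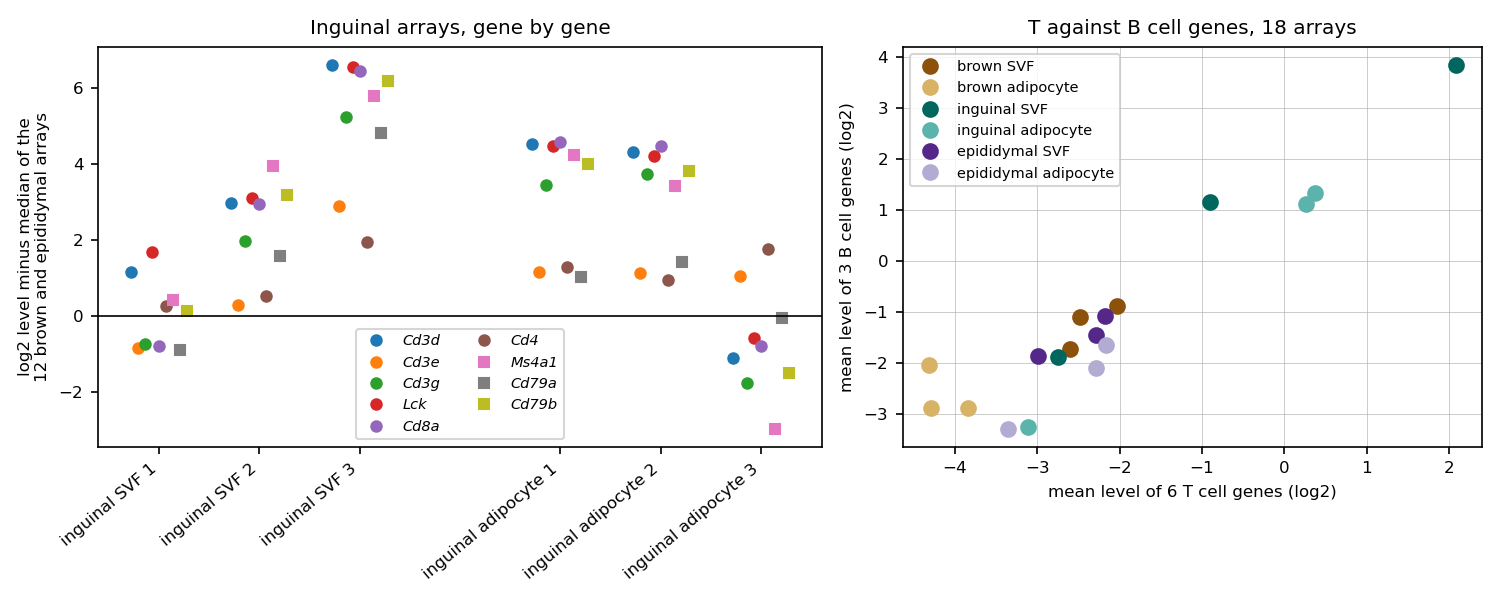
The left panel gives, for each of the 6 inguinal arrays (x axis), the level of each member minus its median on the 12 brown and epididymal arrays (y axis, log2 units, circles for T and squares for B cell genes). The right panel sets the mean level of the 3 B cell genes (y axis) against that of the 6 T cell genes (x axis) on all 18 arrays, with inguinal SVF 3 at 3.84 and 2.08, inguinal adipocyte 1 and 2 and inguinal SVF 2 apart from the rest, and inguinal SVF 1 and adipocyte 3 among the other depots.

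The genes most like the members were looked for over 14956 named genes. With the mean of the T cell members, the 10 highest Pearson correlations over 18 arrays ran from 0.96 to 0.98. They were Cd6, Ptprcap, Il21r, Trbv14, Cd5, Limd2, Cd2, Cd27, Siglecg and Traf3ip3. Cd5, Cd6 and Cd2 are surface proteins of T cells and Ptprcap binds CD45, while Siglecg is best known from B cells. With the mean of the B cell members the 10 highest ran from 0.97 to 0.99: Pacsin1, Fcmr, H2-Oa, Spib, Tnfrsf13c, Cxcr5, Pou2af1, B3gnt5, Ly6d and Traf3ip3. Tnfrsf13c is the receptor for the survival factor BAFF, Cxcr5 the chemokine receptor that leads B cells to follicles, and Spib and Pou2af1 are transcription regulators of B cells. The median correlation over all genes was -0.12 and -0.14. Cd6 reached 5.33 on inguinal SVF 3 and was lowest in brown adipocytes, at -2.13.

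Most other T and B cell genes shared the array order of the members. Of 26 other T cell genes 25 were highest on inguinal SVF 3, as were 23 of 24 other B cell genes, 8 of the 9 members and 16.1% of all genes. The 4 highest arrays were inguinal SVF 2 and 3 and inguinal adipocyte 1 and 2 for 21 of 26 other T cell genes, 19 of 24 other B cell genes and 6 of 9 members, against 1.35% of all genes. The median level of the other T cell genes was -2.09, -0.11 and 2.78 on inguinal SVF 1, 2 and 3, and 0.79, 0.79 and -3.67 on inguinal adipocyte 1, 2 and 3. For the other B cell genes it was -2.74, 0.31 and 3.13, and then 0.33, 0.31 and -3.85. Ptprc, which encodes CD45 of all white blood cells, was at 5.57 on inguinal SVF 3 and at 3.56 and 3.48 on inguinal adipocyte 1 and 2, against -1.01 on adipocyte 3.

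Transcripts of lymph node stroma and of lymphocyte homing moved in part with the members. Glycam1, an adhesion ligand made by the high endothelial venules through which lymphocytes enter lymph nodes, was at 0.06 on inguinal SVF 3, 0.93 on inguinal adipocyte 1 and 0.94 on inguinal adipocyte 2. On the other 15 arrays it lay between -8.23 and -4.84. It was thus high on 3 of the 4 arrays with the highest member levels and at -5.37 on the 4th, inguinal SVF 2. Ccr7, the chemokine receptor of lymphocytes that home to nodes, was at 4.90 on inguinal SVF 3 and at -3.70 on inguinal adipocyte 3. Ccl19, a ligand of Ccr7 made by node stroma, was highest on inguinal adipocyte 1 and 2 (4.79 and 4.40), above inguinal SVF 3 (3.32). Cxcl13, which draws B cells to follicles, was not ordered this way, with 3.62 on inguinal SVF 2, 3.44 on brown SVF 2 and 2.83 on inguinal SVF 3. Madcam1, an adhesion molecule of gut-associated venules, lay between -4.88 and -2.66. Ccl21a had no probe by that name. Over the 10 of 14 genes of this list with a kept probe, the median was -1.95, 1.02 and 2.37 on inguinal SVF 1 to 3 and 1.22, 0.98 and -2.78 on inguinal adipocyte 1 to 3, beside -3.29 to -0.88 on the other 12 arrays. The part of a node in these levels was not tested.

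Gene by gene, other immune lists shared the order less or not at all. By list median, plasma cell genes were nonetheless highest on the 4 arrays named above. They were at 0.01 on inguinal SVF 3, -0.45 and -0.73 on inguinal adipocyte 1 and 2, and -0.76 on inguinal SVF 2. Epididymal SVF 3 came next, at -0.87. The medians of NK and cytotoxic genes and of immature lymphocyte genes were also highest on inguinal SVF 3 (-0.18 and -1.37). Of 8 plasma cell genes 2 were highest on inguinal SVF 3 and 1 had the 4 arrays named above as its highest, and of 4 immature lymphocyte genes 1 and 0 did. No macrophage (12), mast cell (6), lymphatic endothelial (6) or progenitor and fibroblast gene (8) was highest on inguinal SVF 3. The macrophage median was 1.45, 2.29 and 1.12 on inguinal SVF 1 to 3, and Adgre1, the F4/80 antigen of macrophages, was lowest of these on replicate 3, at 1.32. The median of NK and cytotoxic genes was -2.49, -1.51 and -0.18, and 9 of 11 were highest on inguinal SVF 3, but for only 1 of 11 were the 4 highest arrays those named above. Rag1 and Rag2, the recombinases of immature lymphocytes, were each well above background on 1 array of 18. Dntt, a polymerase of immature lymphocytes, was at 0.19 on inguinal SVF 3 and at -0.18 on epididymal adipocyte 1. The adipocyte list was lowest of the inguinal arrays on SVF 3 and highest on adipocyte 3, with medians of 1.67, 2.82 and 0.48 on inguinal SVF 1 to 3 and of 7.04, 6.40 and 8.07 on inguinal adipocyte 1 to 3. The mesothelial list was at 3.85 on inguinal SVF 1 and at -7.58 and -6.62 on inguinal SVF 2 and 3. The part of cell makeup in these differences was not tested.

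**Figure D3:**
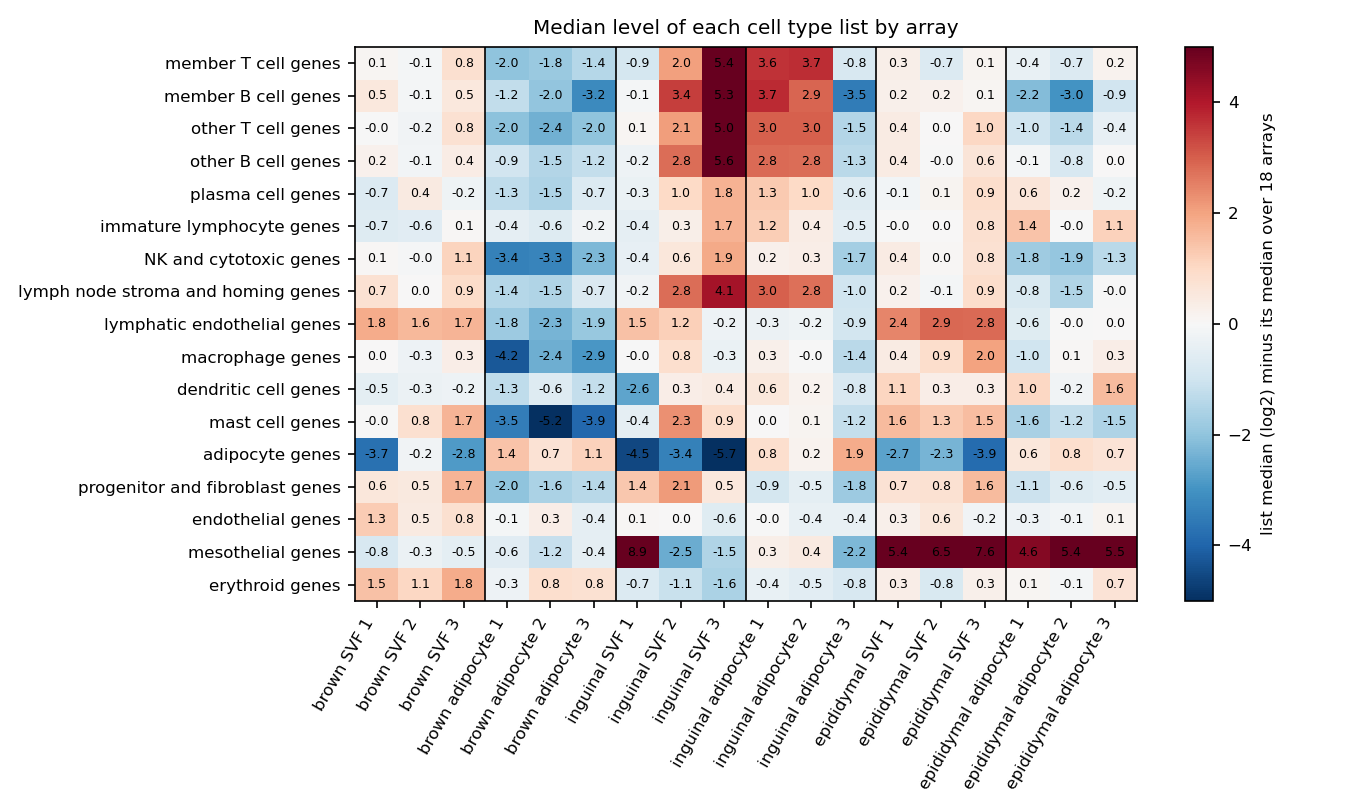
Median level of each gene list (rows) on each array (columns), minus the median of that row over the 18 arrays, in log2 units; red is higher and blue lower, and colours stop at 5 in either direction. The T cell, B cell, plasma cell, immature lymphocyte, NK and lymph node lists are highest on inguinal SVF 3. Before the row median was subtracted, the medians of the lists of other T and B cell genes were 2.78 and 3.13 there. The mesothelial list is high on inguinal SVF 1 and in epididymal fat.

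Adipocytes were compared with SVF within each depot by limma with 1 mean for each of the 6 groups, with adjustment by Benjamini-Hochberg over all genes and a threshold of 0.05. In brown fat no member passed, although 21.1% of all genes did (8.35% as lower) and 2 members had an unadjusted p under 0.05. For 6 members (Cd3d, Cd3g, Lck, Cd8a, Ms4a1 and Cd79b) every adipocyte array lay below every SVF array, as did 17.1% of all genes. Lck differed by -3.00 ± 1.17 (SE, n = 3 per group, adjusted p = 0.0851), Cd3d by -2.68 ± 1.32 (adjusted p = 0.179) and Ms4a1 by -2.45 ± 1.51 (adjusted p = 0.289). Cd3g was not well above background in brown adipocytes and was at least 5.65-fold lower (adjusted p = 0.124), and Cd8a at least 2.42-fold lower (adjusted p = 0.385). The SEs come from all 6 groups and so include the inguinal spread. With only the 2 brown groups in the fit, where 27.8% of all genes passed, all 6 did, Lck with an SE of 0.38 and adjusted p = 0.00227 and Cd79b with -2.09 ± 0.44 and adjusted p = 0.0135. With scan day as a fixed block 3 passed (Cd3d, Cd3g and Lck), and 25.6% of all genes. Without brown SVF 2, the array rich in adipocyte transcripts, none passed and Lck differed by -3.28 (adjusted p = 0.108). For this fit the share of all genes that passed is not given here. Within scan day 6 the Lck difference was -2.74 (2 arrays a group) and within scan day 7 it was -3.52 (1 array a group), and the other 5 members had the same sign on both days. Cd3e, Cd4 and Cd79a differed by 0.21, -0.08 and 0.44, each less than its SE.

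In inguinal fat no member passed (13.9% of all genes did, and 0 members had an unadjusted p under 0.05), and the fractions overlapped for all 9. Among all genes 10.4% lay lower and 16.5% higher in adipocytes without overlap. The member differences ran from -1.83 for Ms4a1 to 0.42 for Cd4. With SVF 3 and adipocyte 1 and 2 high and SVF 1 and adipocyte 3 low, they do not separate the fractions. In epididymal fat Cd4 passed (25% of all genes did, 18% as higher and 7.05% as lower). It was 1.77 ± 0.43 higher in adipocytes (3.41-fold, adjusted p = 0.00901), with no overlap, as 26.4% of all genes were. It passed under 15 of 17 alternatives (adjusted p from 0.00316 to 0.171), all but the deposited matrix and normexp as planned. Without inguinal SVF 1 and epididymal adipocyte 3, it was 1.54 with adjusted p = 0.0352. Cd3d, Lck, Ms4a1 and Cd79b lay lower on every adipocyte array than on any SVF array without passing, and 22.9% of all genes lay so: Lck differed by -2.10 ± 1.17 and Ms4a1 by -2.22 ± 1.51. With only the epididymal groups in the fit, where 26.3% of all genes passed, Cd3d, Lck and Ms4a1 passed as lower beside Cd4 as higher. The Cd4 probe lay between -5.42 and -2.81 in this depot, and epididymal adipocyte 1 had 87.7% of probes well above background. The part of that array's background was not tested.

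The other lists gave the following counts. In brown fat 4 of 26 other T cell genes fell in adipocytes and 1 rose, and 1 of 24 other B cell genes fell, beside the 8.35% of all genes that fell. Thy1, a surface protein of T cells and of fibroblasts, fell by 3.70 ± 0.72 (adjusted p = 0.0023) and Il2rb, a receptor chain for interleukin 2 and 15, fell by 3.58 (adjusted p = 0.00541). Cd74, the invariant chain of class II molecules and shared by B cells, macrophages and dendritic cells, fell by 3.27. Of 11 NK and cytotoxic genes 8 fell, among them Klrd1, an NK cell receptor chain (at least 8.52-fold), and Klrb1c, the NK1.1 antigen (at least 5.04-fold), neither well above background in brown adipocytes. Macrophage genes fell too, 10 of 12, with Mrc1 lower by 3.94 on the log2 scale. The median difference was -2.24 for other T cell genes, -1.83 for other B cell genes, -2.56 for NK and cytotoxic genes and 0.15 for all genes. In inguinal fat no other B cell, NK or lymph node gene passed, and 1 of 26 other T cell genes rose. In epididymal fat 1 of 26 other T cell genes fell (Il2rb, by 2.53) and 1 rose, and 1 of 24 other B cell genes rose (Cr2, a complement receptor, by 2.78). Of 11 NK and cytotoxic genes 5 fell there, such as Xcl1, a chemokine, by 3.20. Of the plasma cell genes Xbp1, a transcription factor of secretory cells, rose by 1.48 in inguinal fat and Jchain, the joining chain of polymeric antibodies, fell by 3.27 in epididymal fat. Ptcra, the pre-T cell receptor alpha chain of immature T cells, was not well above background in epididymal SVF, and adipocytes there had at least 7.69-fold more (adjusted p = 0.000772).

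Between depots, 4 members were lower in brown than in inguinal adipocytes (12.2% of all genes passed, 5.83% as lower): Lck by -4.55 ± 1.17 (adjusted p = 0.0217), Cd3g by at least 15.1-fold (adjusted p = 0.0419), Cd3d by -4.28 ± 1.32 (adjusted p = 0.0473) and Cd4, at least 1.13-fold lower (adjusted p = 0.0264). Cd3d was 19.5-fold and Lck 23.4-fold lower, folds that ran from 9.9 to 70.1 and from 12.7 to 73.0 with 1 array left out, lowest without inguinal adipocyte 1 and highest without inguinal adipocyte 3. The calls lean on single arrays, and the share of all genes that passed in fits with 1 array left out is not given here. Without inguinal adipocyte 3, Cd3d, Cd3g, Lck, Cd8a, Ms4a1 and Cd79b passed and Cd4 did not, and without inguinal adipocyte 1 none of the 9 passed. Without brown adipocyte 1 or 3 none passed either, only Lck passed without brown adipocyte 2, and only Cd4 without inguinal adipocyte 2. With only the 2 groups in the fit, where 6.76% of all genes passed, Cd3e and Cd4 did and the other 7 did not. These groups were also scanned on different days, so depot and scan cannot be told apart. Without inguinal SVF 1 and epididymal adipocyte 3, the 4 calls held and Cd8a passed as well, for 5 in all. The share of all genes that passed in that fit is not given here either. The median over the 6 T cell members was -4.07 and over the 3 B cell members -3.17, and it was 0.15 over all genes.

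Of the other T cell genes 11 of 26 were lower in brown than in inguinal adipocytes, with a median of -3.68. Skap1, an adaptor of T cell receptor signalling, was lower by -4.55 ± 1.23 (adjusted p = 0.0273), and Icos, a co-stimulatory receptor, and Tcf7, a transcription factor of T cells, were at least 10.4-fold and 11.5-fold lower. Only 1 of 24 other B cell genes, Cd74, passed, with a median of -2.78 over the list. Of the lymph node and homing genes, Ccl19 (-4.19, adjusted p = 0.00935) and Fut7 (-2.52), a fucosyltransferase that makes selectin ligands, passed. Macrophage genes were lower as well, 8 of 12, such as Cd163, a scavenger receptor, by -3.99 ± 0.59. Their part in the member differences was not tested.

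Cd4 was the single member to pass between brown and epididymal adipocytes, at least 1.71-fold lower in brown (adjusted p = 0.00246), where 28.8% of all genes passed, 16.4% as lower. These groups also differed in slide, scan day and software version, so depot and scan cannot be told apart. Between inguinal and epididymal adipocytes none passed (7.64% of all genes did, 0.885% as higher), although 3 members had an unadjusted p under 0.05. Lck, 3.47 ± 1.17 higher in inguinal, did not overlap (adjusted p = 0.0831). Among all genes 11.3% were higher in inguinal adipocytes without overlap. Without inguinal adipocyte 3, which was the lowest of its group for 8 members, all but Cd4, 5 members passed as higher in inguinal adipocytes: Cd3d (5.17), Lck (5.11), Cd8a (4.82), Ms4a1 (5.34) and Cd79b (4.78, adjusted p = 0.0237). Leaving out this array also narrowed the spread, with an SE of 0.94 for Lck. The share of all genes that passed in that fit is not given here. Inguinal and epididymal adipocytes, too, shared no slide or scan day.

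Between SVF of different depots no member passed: 2.27% of all genes did for brown against inguinal, 1.78% for brown against epididymal and 0.297% for inguinal against epididymal SVF. By limma, 2 members in the brown-inguinal and 1 in the inguinal-epididymal comparison had an unadjusted p under 0.05. Cd4 was lower on every brown than on any inguinal SVF array (-1.10 ± 0.43, adjusted p = 0.206), as were 7.37% of all genes, and the other 8 members overlapped. The Cd4 values nearly met, at -4.97 on brown SVF 2 and -4.95 on inguinal SVF 1. On inguinal SVF 1 and brown SVF 3 Cd4 was not well above background. All 9 were lower in brown than in inguinal SVF on average, by between -2.63 (Lck) and -0.98 (Cd3e), and brown and epididymal SVF differed by between -0.35 and 0.95. Within scan day 7, with 1 array a group, inguinal SVF 3 exceeded brown SVF 3 by 2.54 to 5.20 units. Within scan day 6, with 2 arrays a group, brown minus inguinal SVF was -1.63 for Lck and 0.18 for Cd3e. Without inguinal SVF 1, the array with Xist, Cd79a passed as -3.37 ± 0.79 lower in brown than in inguinal SVF and as 3.70 ± 0.79 higher in inguinal than in epididymal SVF. The share of all genes that passed without this array is not given here.

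**Figure D4:**
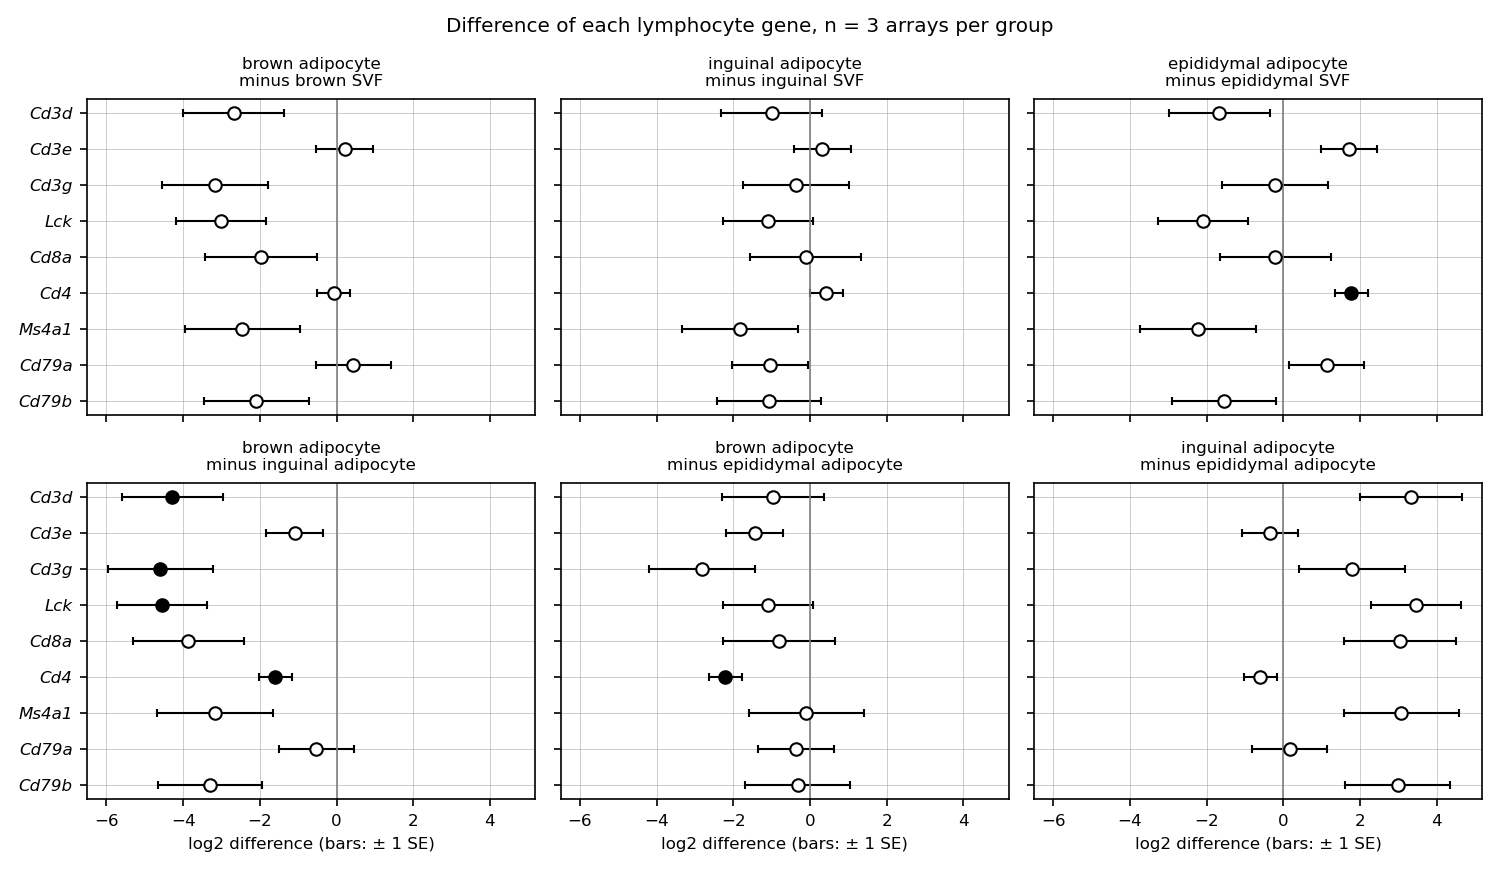
Difference of each member between groups (x axis, log2 units, bars of 1 SE from the fit of all 6 groups, n = 3 arrays per group) in 6 comparisons, with filled points where the adjusted p was under 0.05. Cd3d, Cd3g, Lck and Cd4 pass between brown and inguinal adipocytes, and Cd4 in 2 other panels, while the SE of 1.32 for Cd3d is as wide in brown fat as in the rest because it is shared.

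The adipocyte minus SVF differences were themselves compared between depots. No member passed in any of the 3 pairs of depots, where 0.864% (brown against inguinal), 2.02% (brown against epididymal) and 0.0781% (inguinal against epididymal) of all genes did. By limma 0, 1 and 1 members had an unadjusted p under 0.05, both times Cd4. For Cd4 the brown minus epididymal value was -1.85 ± 0.61 (adjusted p = 0.115). It passed when epididymal adipocyte 2 was left out or when only these groups were fitted, with the share of all genes not given here. That Cd4 passed in epididymal and not in brown fat is therefore no shown difference between the depots.

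Several members had more than 1 probe. The 3 Cd8a probes were correlated over the arrays with r of 0.84 to 0.96 and the 2 Ms4a1 probes with 0.97. The Cd8a probe printed above was at -6.24, -2.85 and 0.32 in inguinal SVF and at -1.65, -1.33 and -7.53 in inguinal adipocytes, its highest value on inguinal SVF 3 as with the brighter probe. Outside inguinal fat the 3 Cd8a probes differed. Epididymal adipocytes minus SVF was -0.20 on the chosen probe, 0.51 on the printed one and -2.18, without overlap, on the remaining one. Brown adipocytes minus SVF was -1.97, -0.65 and -3.53 in this order, and on the printed probe the brown fractions overlapped. The dimmer Cd3e probe was well above background on exactly 4 arrays, inguinal SVF 2 and 3 and inguinal adipocyte 1 and 2, at -5.14, -2.23, -4.20 and -4.27. Its r with the mean of the other 8 members was 0.75, against 0.51 for the brighter Cd3e probe. The dimmer Cd4 probe was well above background only on inguinal SVF 3 and inguinal adipocyte 2 (-2.96 and -5.04), with r = 0.72 against 0.33 for the chosen one, and was at -7.84 and -6.31 on epididymal adipocyte 1 and 3. On these 2 genes the probes thus gave different orders, and the epididymal adipocyte call of Cd4 rests on 1 of its 2 probes. Neither dim probe passed the filter, so the rule on the brightest kept probe decided which was tested.

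**Figure D5:**
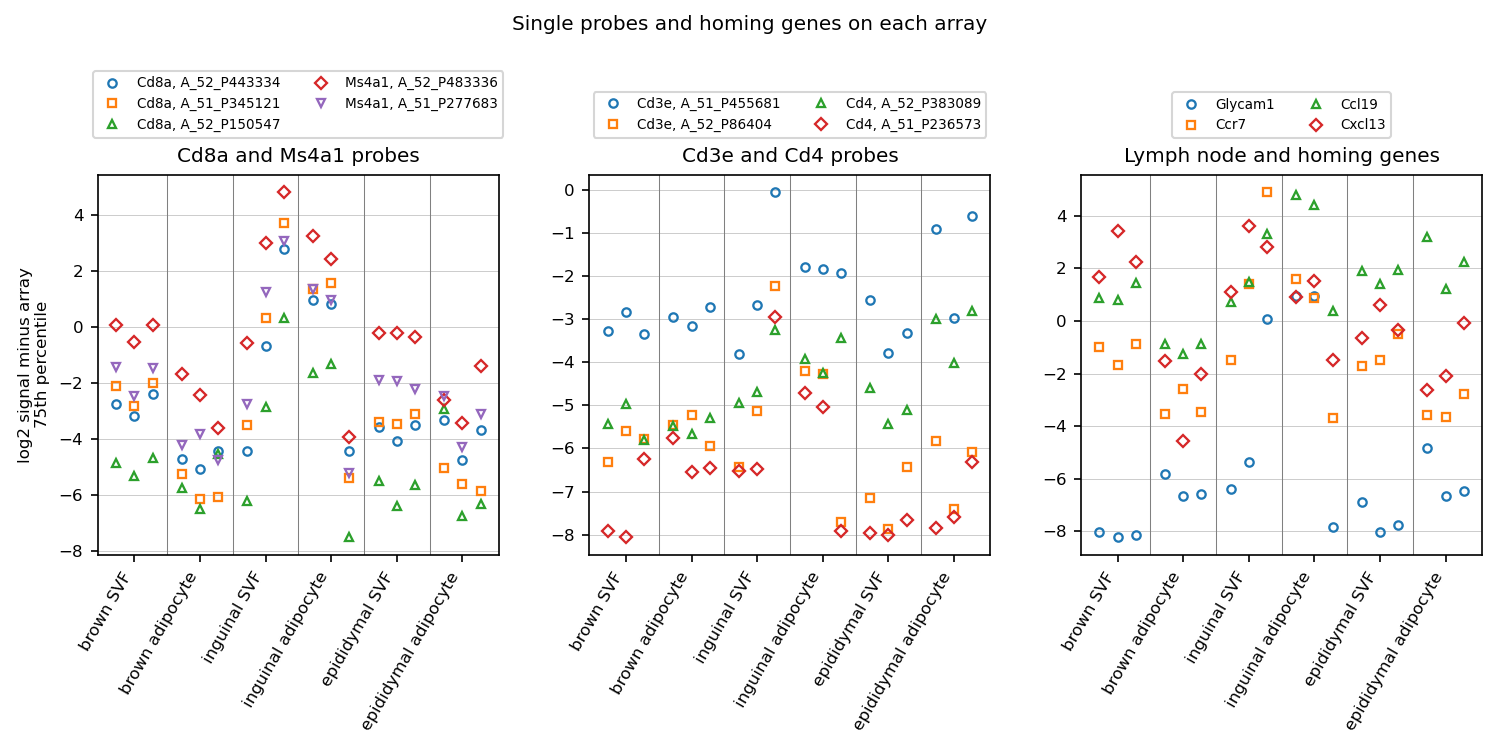
Level (y axis, log2 signal minus the 75th percentile of the array) of single probes of Cd8a and Ms4a1 (left), of Cd3e and Cd4 (middle) and of 4 lymph node and homing genes (right), with 1 point per array by group (x axis), replicates 1 to 3 from left to right. The left probes share their 4 highest arrays, all inguinal, but the Cd8a probes differ on epididymal adipocytes. The pairs in the middle do not keep a common order, and Glycam1 leaves its low range of -8.23 to -4.84 on 3 inguinal arrays.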

How the data were processed

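RNA of 18 samples was hybridised to single-colour (Cy3) Agilent 4x44K mouse arrays. Per the file headers, the authors extracted images with Feature Extraction 10.5.1.1 or, for inguinal and epididymal adipocytes, 9.5.3.1. The deposited processed signals are background-corrected intensity values, and the deposited matrix holds log2 values of 31161 probes, whose normalization is not given in the sources used here. Each of its 18 columns correlates most with an array of its own group, but only 4 with the array of the same number, so replicate numbers may differ between the files. Here, flagged and control spots were dropped, spots of a probe averaged, and log2 signal minus the array's 75th percentile taken. The filter, 3 of 3 arrays well above background in some group, kept 28595 of 41174 probes and gave 19217 genes (brightest kept probe).

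Tests used limma 3.58.1 in R 4.3.3, with 1 mean per group and Benjamini-Hochberg adjustment over all genes. A probe that was well above background on no array of a group gives only a bound, "at least N-fold", taken from the lowest level well above background on each array. Probe accessions named 24375 probes through RefSeq's gene table, current symbols 6301 more and older symbols 2426; the remaining 8072 keep the array's own name. Same-numbered adipocyte and SVF arrays deviated together in epididymal fat (correlations 0.138 to 0.482) but not in brown (-0.119 to 0.389) or inguinal fat (-0.229 to 0.054), so the numbers were not taken to pair samples. On simulated data for brown adipocytes against SVF (19217 genes), 62% of log2 changes of 2 and 90% of 3 were recovered with 8 false calls. The simulated spread was that measured over all genes, and most members spread more than most genes in inguinal fat. These shares therefore do not hold for the members: Lck, at -3.00 ± 1.17 (SE) in this comparison, was not called. The number of arrays limits the precision.

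Named genes were the members, the 10 likest to the T and to the B cell members, up to 4 called genes of a list, and followed markers. A few genes that this rule would name are not reported here by name. Members and lists were chosen with earlier results of these data known. Ucp1, the motifs and the fits of single probes, of a repaired normexp and of slide as a fixed block were added after the data were seen. Alternatives were normexp (on median signals, since 12 files hold no mean signal), quantile scaling, no filter, mean of probes, the matrix, blocks of number, slide or scan day, subsets of groups and leaving out arrays.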

Additional observations from a re-analysis of the deposited data

How the results depend on the processing

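Counts of members called are given out of 9, without the share of all genes called under each alternative. None was called under any alternative run for adipocytes against SVF in inguinal fat, for brown against epididymal SVF, or for the fraction effects of brown against inguinal and of inguinal against epididymal fat. In adipocytes against SVF of brown fat, where 0 were called, there was 1 with a random block of slide or of scan day or with only scan day 6, 3 with either as a fixed block (slide added after seeing the data), and 6 with only the groups compared. In epididymal fat the 1 call became 0 with normexp as planned or with the deposited matrix, and 4 with only the groups compared. The 4 calls of brown against inguinal adipocytes became 0 with normexp, also after a repair added after seeing the data, and 2 without the filter, with the matrix, with the replicate block, with scan day as a random block or with only the groups compared. The 1 call of brown against epididymal adipocytes became 0 with either normexp and 3 with only the groups compared. The replicate block changed no other count. Normexp as planned called 4 in both brown against inguinal and inguinal against epididymal SVF, where 0 were called, but its background estimate failed on 4 inguinal arrays (means of -673 to -389). The brown-epididymal difference in fraction effects gave 1 call with only the groups compared. Leaving out 1 array at a time gave 0 to 6 calls in brown against inguinal adipocytes, 0 to 5 in inguinal against epididymal adipocytes, 0 to 1 in brown against inguinal and in inguinal against epididymal SVF, 1 to 2 in epididymal fractions and in brown against epididymal adipocytes, and 0 to 1 in the brown-epididymal fraction effect. Where that leaves 2 arrays, they are assumed to vary like the other groups. Signs turned for Cd4 in brown against inguinal adipocytes (0.041 with the repaired normexp) and in inguinal against epididymal adipocytes (0.96 with normexp, 0.081 with quantile scaling, 0.053 with the matrix). Cd3e turned with only scan day 6 in brown against inguinal SVF (0.18) and in inguinal against epididymal SVF (-0.070), and its values there with 1 array left out ran from -1.79 to 0.081 and from -0.020 to 1.85. In adipocytes against SVF of inguinal fat, Ms4a1 ran from -3.32 to 0.43 and Cd79a from -2.40 to 0.46 with 1 array left out, and the brown-inguinal fraction effect of Cd79a from -0.017 to 2.84. The cause of these shifts was not tested. Levels near background limit Cd4, Cd79a and the bounds in brown adipocytes. Of the values of single members whose difference was at least its SE, 1050 kept their direction and their side of the threshold, 42 lost and 43 gained a call, and 11 turned sign.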
